A study of Mus musculus with 8 samples.

Results

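The transcripts described here encode the proteins of the mitochondrial ribosome. They were found as the probes whose RefSeq accession belonged to a mouse gene with the symbol Mrpl (large subunit) or Mrps (small subunit) followed by a number and at most 1 letter, with pseudogenes left out. The array held 78 such genes among 20972 named genes, 49 of them Mrpl and 29 Mrps, on 100 probes. Of these, 99 probes of 77 genes (48 Mrpl, 29 Mrps) were bright enough to be tested. The exception was Mrpl21, whose only probe was well above background, a flag set by the scanner software, in 0 of 8 animals. The other probes were well above background in all 8 animals, except the second probe of Mrpl41 (6 of 8), and 0 member probes held a saturated spot.

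RNA came from the white portion of the gastrocnemius, a calf muscle of mainly fast-twitch fibres, of mice aged 14 to 16 weeks. There were 4 groups by genotype and sex, with 2 mice in each: male and female wild type mice, and male and female mice homozygous for a mutant Pus1, the gene of pseudouridine synthase 1. All were of C57BL/6J background after 5 generations of backcrossing, and the sources used here do not describe the mutant allele further. On each of 4 arrays of 2 colours a mutant was hybridised with a wild type mouse of its sex and number, giving pairs 1 and 2 (male) and pairs 3 and 4 (female), with dyes swapped within each sex.

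Mitochondria translate the few proteins encoded by their own DNA, all of them subunits of the respiratory chain and ATP synthase, on ribosomes of their own. The protein parts of these ribosomes are encoded in the nucleus, made in the cytosol and imported, and they comprise relatives of bacterial ribosomal proteins and others found in mitochondria and not in bacteria. Pus1 converts uridine to pseudouridine in cytosolic and mitochondrial tRNA, which these ribosomes read, and people who lack it develop a myopathy with lactic acidosis and sideroblastic anaemia.

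Promoter sequence is shown for 3 members: Mrpl14, Mrps10 and Mrpl47. Mrpl14 passed the test between the sexes, though not with any pair left out. Mrps10 had the highest mutant over wild type ratio and Mrpl47 the lowest, and neither passed the test between the genotypes. Each line gives the 250 bases before the RefSeq start of the gene, on its own strand, in assembly GRCm38.p6: chr17:45686099-45686348 on the plus strand for Mrpl14, chr17:47368947-47369196 on the plus strand for Mrps10 and chr3:32736756-32737005 on the minus strand for Mrpl47. Capitals mark the letters GGGCGG of SP1, a general promoter factor, on either strand.
Mrpl14: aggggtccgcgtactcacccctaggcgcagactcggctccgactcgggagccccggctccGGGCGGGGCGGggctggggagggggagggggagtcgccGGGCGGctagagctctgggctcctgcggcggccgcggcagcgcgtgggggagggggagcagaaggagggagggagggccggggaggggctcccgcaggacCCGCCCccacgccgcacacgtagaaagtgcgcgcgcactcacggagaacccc
Mrps10: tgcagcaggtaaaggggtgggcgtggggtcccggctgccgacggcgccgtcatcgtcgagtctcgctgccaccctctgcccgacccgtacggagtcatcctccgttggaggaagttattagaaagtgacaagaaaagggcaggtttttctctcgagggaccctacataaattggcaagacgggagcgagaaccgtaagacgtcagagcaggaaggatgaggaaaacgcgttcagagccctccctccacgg
Mrpl47: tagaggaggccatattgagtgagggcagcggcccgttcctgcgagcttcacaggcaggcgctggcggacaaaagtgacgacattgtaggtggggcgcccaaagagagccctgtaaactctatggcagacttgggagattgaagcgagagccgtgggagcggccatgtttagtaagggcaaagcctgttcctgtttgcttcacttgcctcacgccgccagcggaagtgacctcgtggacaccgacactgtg
The 3 SP1 matches on the gene's strand in Mrpl14 began at positions −190, −185 and −152 relative to the start, the first pair of them overlapping, and 1 match on the other strand lay at −52. A further match on the gene's strand lay at 22, past the stretch shown. The windows of Mrps10 and Mrpl47 held none of the 4 motifs searched.

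The same search covered 300 bases, 250 before and 50 after the start, in 75 promoters of 69 member genes, on both strands. CCGGAAG, the core recognised by ETS factors such as GABP (NRF2), stood in 26 of 75 member promoters (34.7%), against 16.3% of the promoters of all genes with a tested probe and 8.86% of all promoters. ATGGCGG, the core of YY1, a factor bound near many start sites, stood in 13 (17.3%), against 7.65% and 4.05%. The palindromic consensus of NRF1, an activator of nuclear genes for mitochondrial proteins, stood in 3 promoters (4.0%; Mrpl9, Mrpl32 and Mrpl39), against 1.92% and 0.971%. GGGCGG of SP1 stood in 39 (52.0%), against 59.9% and 35.7%. By symbol, the ETS letters stood in 15 of 48 Mrpl and 11 of 27 Mrps promoters, the SP1 letters in 21 and 18, and the NRF1 letters in 3 and 0. These matches describe letters in a window and not binding.

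In all, 23098 probes were tested, and the share of spots well above background ran from 38.0% to 46.5% over the samples. All values below are log2 values: a level is the normalized log2 intensity of 1 animal, and a ratio is mutant over wild type within a pair or its fitted mean over 4 pairs. With 1 pair left out, the genotype fit kept the dye term. The pair then alone in its dye orientation carried as much weight as the others together. A gene with several probes is represented by the brightest. The signal of Pus1 itself stood well above background in all 4 wild type mice and in 0 of 4 mutants. Its mean levels in the genotypes differed 2.76-fold. Its fitted ratio was −1.46 (limma, unadjusted p 8.01e-06, adjusted p 0.0786), so even Pus1 did not pass the adjusted threshold used below. A lack of calls between the genotypes at that threshold therefore does not by itself show a lack of change. All 14 fast and glycolytic fibre markers listed were tested, with a summed level of 20.89 to 21.50 in wild type and 21.14 to 21.73 in mutant muscle. By fitted ratio 10 were higher and 4 lower, with pair medians of −0.08, −0.28, 0.61 and −0.14. Myh1 had −1.29 and Myoz3 −0.30, while Myoz1 had 0.19 and Mylpf 0.30.

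No mitoribosomal transcript passed the test for a difference between the genotypes. In limma, 0 of 99 member probes passed an adjusted p of 0.05, against a background of 0% of all tested probes (0 of 23098). At an unadjusted p under 0.05 the count was again 0 of 99 members, against 3.35% of all tested probes (774). That count was 1 with no filter on dim probes (Mrps10), 1 without pair 1, 3 without pair 3, and 0 in the other 12 settings run. Fitted ratios of members ran from −0.19 to 0.21, while those of all tested probes ran from −1.92 to 1.59. Standard errors (SE) of the members lay between 0.09 and 0.16 (n = 4 pairs). The 95% intervals of 98 of 99 member probes (99.0%) lay wholly between −0.5 and 0.5, as did those of 85.5% of all tested probes. The exception was Mrpl1, a protein of the stalk at the exit side for tRNA, whose interval reached 0.56. The lowest bound of any member was −0.46, for Mrps11 of the small subunit platform.

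**Figure D1:**
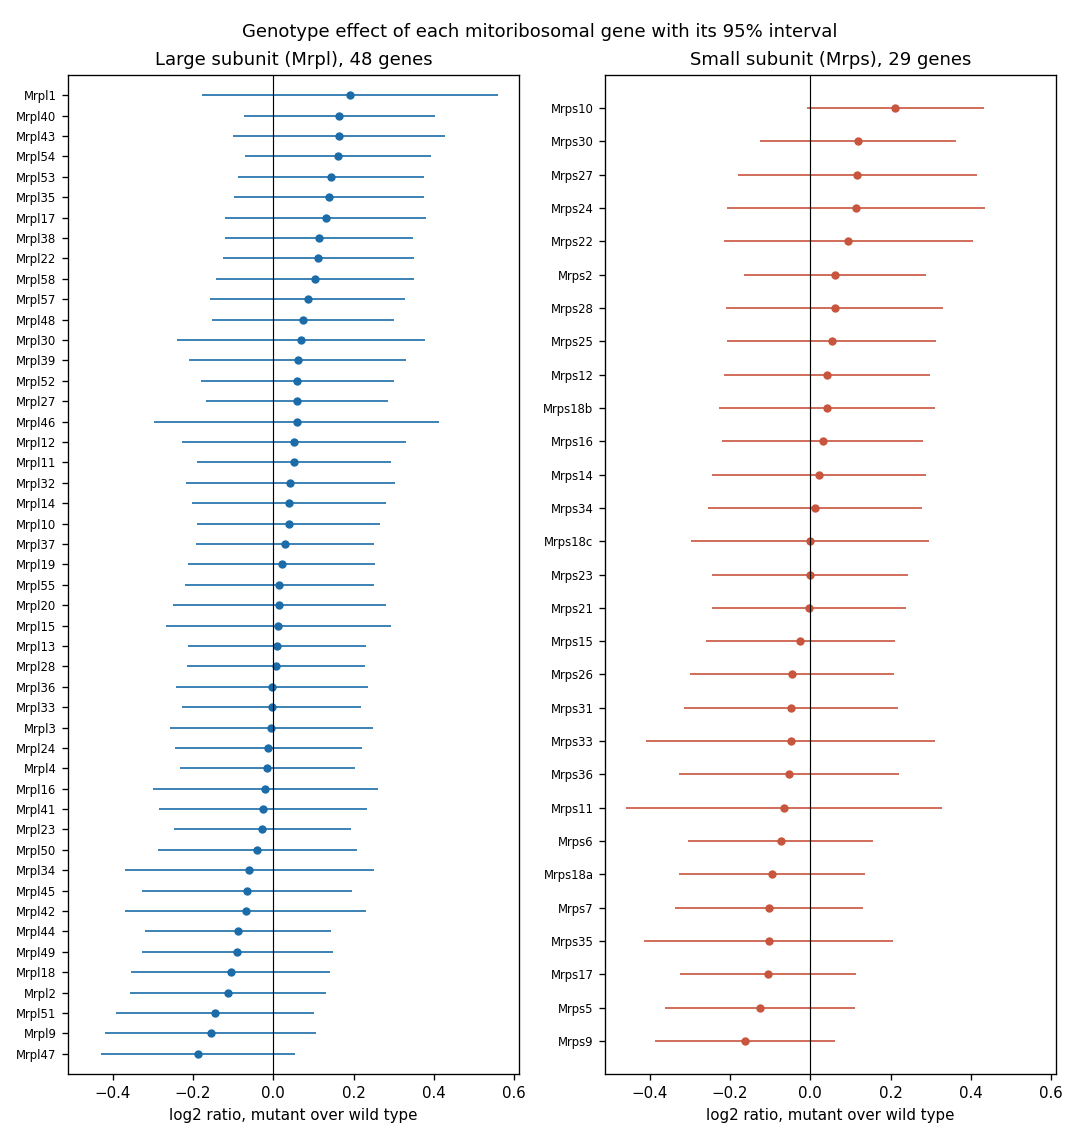
Fitted log2 ratio, mutant over wild type (x axis), for each of 48 Mrpl genes (left) and 29 Mrps genes (right), 1 gene per row and ordered by ratio. Points are limma estimates over 4 pairs and bars are 95% intervals, every one of which crosses 0.

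By sign, 42 members were higher and 35 lower in mutants, with a median of 0.01, while all tested probes split into 11649 higher and 11449 lower with a median of 0.0013. With median centring of the arrays in place of loess, the split became 15 higher and 62 lower with a median of −0.07, and that of all tested probes moved in the same direction to 6861 and 16237 with a median of −0.06. Large and small subunit genes lay close to each other. Of the Mrpl genes, 29 were higher and 19 lower (median 0.02), and of the Mrps genes 13 were higher and 16 lower (median −0.0015). The Mrpl median exceeded the Mrps median by 0.02 in the fit, and by 0.0025, 0.04, 0.02 and 0.02 in pairs 1 to 4. The gap was thus at or above 0 in 4 of 4 pairs, with an SD over the pairs of 0.015, while the SD of each median over the pairs was 0.11 for Mrpl and 0.12 for Mrps. It was not tested, and without pair 2 it was −0.0052.

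Symbols do not give the place of every protein. Mrps30 (mL65) and Mrps18a (mL66) lie in the large subunit, while Mrps18b (mS40) and Mrps18c (bS18m), relatives of Mrps18a, lie in the small one, and Mrps36 has since been assigned to the oxoglutarate dehydrogenase complex. Dap3, Ptcd3, Chchd1, Aurkaip1 and Gadd45gip1 are subunits with other symbols. Sorted by place, with these 5 genes added and Mrps36 left out, 31 of 51 large subunit genes were higher (median 0.02) and 15 of 30 small subunit genes (median 0.0040). Sorted by origin, 24 of 45 relatives of bacterial proteins were higher (median 0.01) and 22 of 36 mitochondria-specific proteins (median 0.04). None of these 81 genes passed the adjusted threshold, and none had an unadjusted p under 0.05 in limma.

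Among the Mrpl genes, the smallest p on the higher side belonged to Mrpl54, Mrpl40, Mrpl43, Mrpl53 and Mrpl35. The first 4 encode mitochondria-specific proteins (mL54, mL40, mL43 and mL53) and Mrpl35 a relative of bacterial L35. Their ratios were 0.16, 0.16, 0.16, 0.14 and 0.14, with limma p from 0.139 to 0.199. The second Mrpl40 probe gave 0.01. Without pair 1 the ratio of Mrpl43 was 0.06 and that of Mrpl35 0.08. Levels of Mrpl53 were 13.80, 13.57, 13.57 and 13.45 in wild type mice 1 to 4 and 13.97, 13.69, 13.57 and 13.72 in mutants 1 to 4. Its 4 ratios were 0.17, 0.13, 0.0030 and 0.27, all above 0, and the genotypes overlapped because wild type 1 lay above mutants 2 to 4. Mrpl43 had 2 probes with nearly the same fitted ratio (0.16 each), and the dimmer one was higher in the mutant of each pair (0.24, 0.16, 0.07 and 0.19).

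On the lower side stood Mrpl47, Mrpl9, Mrpl51, Mrpl2 and Mrpl18, at −0.19, −0.16, −0.15, −0.11 and −0.11, with limma p from 0.108 to 0.334. Without pair 3 Mrpl9 had −0.06, Mrpl51 −0.06, Mrpl2 −0.07 and Mrpl18 −0.02. Mrpl2 had −0.05 without pair 4, and Mrpl47 −0.11 without pair 2. Mrpl47 encodes uL29m, which lies near the exit of the nascent chain tunnel. Its levels were 10.88, 10.66, 10.72 and 10.697 in wild type mice and 10.72, 10.28, 10.59 and 10.61 in mutants. Every mutant was below its partner (−0.16, −0.38, −0.12 and −0.09), yet the genotypes overlapped through mutant 1. The second Mrpl47 probe gave −0.02. Mrpl51 (mL51) was the member whose genotypes did not overlap (1 of 99 probes, 1.01%, against 1.27% of all tested probes). Its levels were 14.96, 14.92, 14.92 and 14.88 in wild type mice and 14.87, 14.87, 14.50 and 14.86 in mutants, so that the gap between the genotypes was narrow and mutant 3 lay apart from the other mutants.

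Among the Mrps genes, Mrps10, Mrps30, Mrps27, Mrps24 and Mrps22 had the smallest p on the higher side, with ratios of 0.21, 0.12, 0.12, 0.11 and 0.09. Mrps10 encodes uS10m of the small subunit head. Its levels were 12.16, 11.36, 11.47 and 11.34 in wild type mice and 12.31, 11.58, 11.63 and 11.66 in mutants. Every mutant was above its partner, by 0.15, 0.22, 0.16 and 0.32, while the genotypes overlapped because both mice of pair 1 stood far above the other 6. The fitted ratio of 0.21 (SE 0.09, 95% interval −0.01 to 0.43) had the smallest p of any member (limma, unadjusted p 0.0575). Mrps24 (uS3m) and Mrps22 (mS22) gave 0.63 each in pair 1, and without that pair they were −0.04 and −0.06. Mrps27, an RNA-binding subunit, likewise went from 0.12 to −0.0033 without pair 1, and Mrps30 from 0.12 to 0.06 without pair 1 or pair 4.

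On the lower side stood Mrps9, Mrps5, Mrps17, Mrps7 and Mrps18a, at −0.16, −0.12, −0.11, −0.10 and −0.10, with limma p from 0.124 to 0.349. Without pair 3 Mrps7 had −0.05 and Mrps18a −0.04, and without pair 2 Mrps5 had −0.06. Mrps5 encodes uS5m, a protein of the small subunit near the mRNA entry side. Its levels were 9.26, 9.19, 9.09 and 9.09 in wild type mice and 9.19, 8.92, 8.95 and 9.07 in mutants, each mutant below its partner, and mutants 2 to 4 below every wild type mouse. Mrps9 (uS9m) had pair ratios of −0.32, −0.08, −0.30 and 0.05. The pair ratios of Mrps18a were all below 0 (−0.0047, −0.09, −0.22 and −0.07), and those of its large subunit companion Mrps30 were 0.31, −0.07, 0.08 and 0.15. Mrps18b had a ratio of 0.04 and Mrps18c of −0.0014.

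Over all members, 9 of 99 probes (9.09%) had 1 sign in all 4 pairs, against a background of 9.93%. They belonged to Mrpl18, Mrpl43 (dimmer probe), Mrpl47, Mrpl51, Mrpl53, Mrps10, Mrps18a, Mrps5 and Mrps7. Mrps7, whose protein uS7m binds the small subunit rRNA in the head, was lower in each mutant by its brighter probe (ratio −0.10), while its second probe (−0.13) was higher in mutant 1.

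The ratios of the members shifted together from pair to pair. In pair 1, 56 of 77 members were higher in the mutant, with a median of 0.16. The count was 29 in pair 2 (median −0.05), 22 in pair 3 (−0.13) and 48 in pair 4 (0.03). Medians of all tested probes in the same pairs were −0.0084, −0.02, 0.02 and −0.01. Mrpl and Mrps medians shifted alike, at 0.16 and 0.16 in pair 1, −0.04 and −0.08 in pair 2, −0.11 and −0.13 in pair 3, and 0.03 and 0.01 in pair 4. Without pair 1 the split of the fitted ratios was 24 higher and 53 lower (median −0.05), and without pair 3 it was 57 higher and 20 lower (median 0.08).

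**Figure D2:**
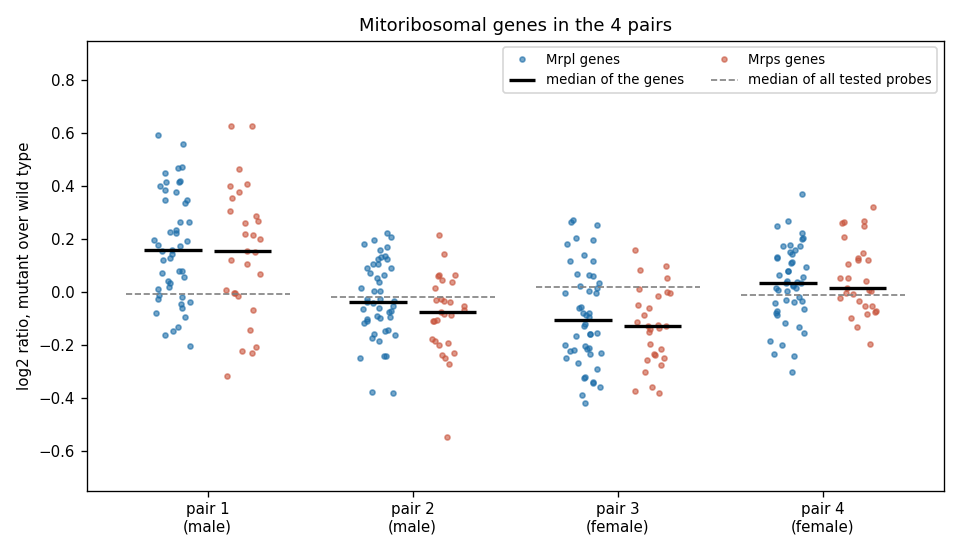
Log2 ratio, mutant over wild type (y axis), of every Mrpl gene (blue) and Mrps gene (red) in each of the 4 pairs (x axis). Thick lines are medians of the genes and dashed lines medians of all tested probes; both medians lie above 0 in pair 1 (0.16 each) and below it in pair 3 (−0.11 and −0.13), while single members lie on either side of 0 in every pair.

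Mutant animals 1 and 3 stood at the ends of this spread. The median deviation of the members from their own mean over 8 animals was 0.12 in mutant 1 and −0.10 in mutant 3. In the other 6 animals it lay between −0.03 and 0.01. In mutant 1, 65 of 77 members were above their mean, and in mutant 3 21 were. Slow and oxidative fibre markers also varied between these animals: their median deviation was 0.88, −0.25, 0.56 and 0.85 in wild type mice 1 to 4 and −1.16, 0.37, −0.80 and −0.37 in mutants 1 to 4. All 15 were tested, and their summed level ran from 16.79 to 17.49 in wild type and from 15.61 to 16.80 in mutant mice. Their median ratio was −1.07, all 15 being lower, but −1.82 without pair 2 and −0.02 without pair 4 (9 of 15 lower). In the fit without pair 4, pair 2 carried as much weight as pairs 1 and 3 together. The markers had pair medians of −1.97, 0.62, −1.45 and −1.33. Mutants 1 and 3 thus had low values of these markers and opposite deviations of the members, and the markers' part in the members' values was not tested. In such whole-tissue RNA, fewer cells of a type and less RNA per cell cannot be told apart.

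Some lists of markers of cells other than muscle fibres were also uneven. Summed levels of 10 fibroblast markers were 14.90 to 15.69 in wild type and 15.30 to 15.79 in mutant mice, with pair medians of 1.18, −0.44, 0.18 and 0.45. Summed macrophage markers (6 of 8 tested; Cd68 and Cd163 were not) ran from 10.94 to 11.32 and from 11.02 to 11.98, highest in mutant 1, with pair medians of 0.94, −0.28, −0.16 and 0.34. Adipocyte markers (6 of 8 tested; Lep and Adrb3 were not) ran from 11.52 to 13.43 and from 12.02 to 13.71, lowest in wild type 1 and highest in mutant 1, with pair medians of 1.65, −1.14, 0.72 and 0.10. Erythroid markers (8 of 11 tested) ran from 15.47 to 17.41 and from 16.46 to 18.73. Endothelium markers (8 of 8 tested) ran from 12.87 to 13.07 and from 12.60 to 13.15, with a median ratio of −0.01. Satellite cell markers (4 of 6 tested) ran from 11.10 to 11.35 and from 11.10 to 11.39 (median ratio 0.03). Schwann cell markers (6 of 7 tested) ran from 10.51 to 11.12 and from 10.59 to 11.72 (median ratio 0.07). The part of these cells in the members' values was not tested.

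**Figure D3:**
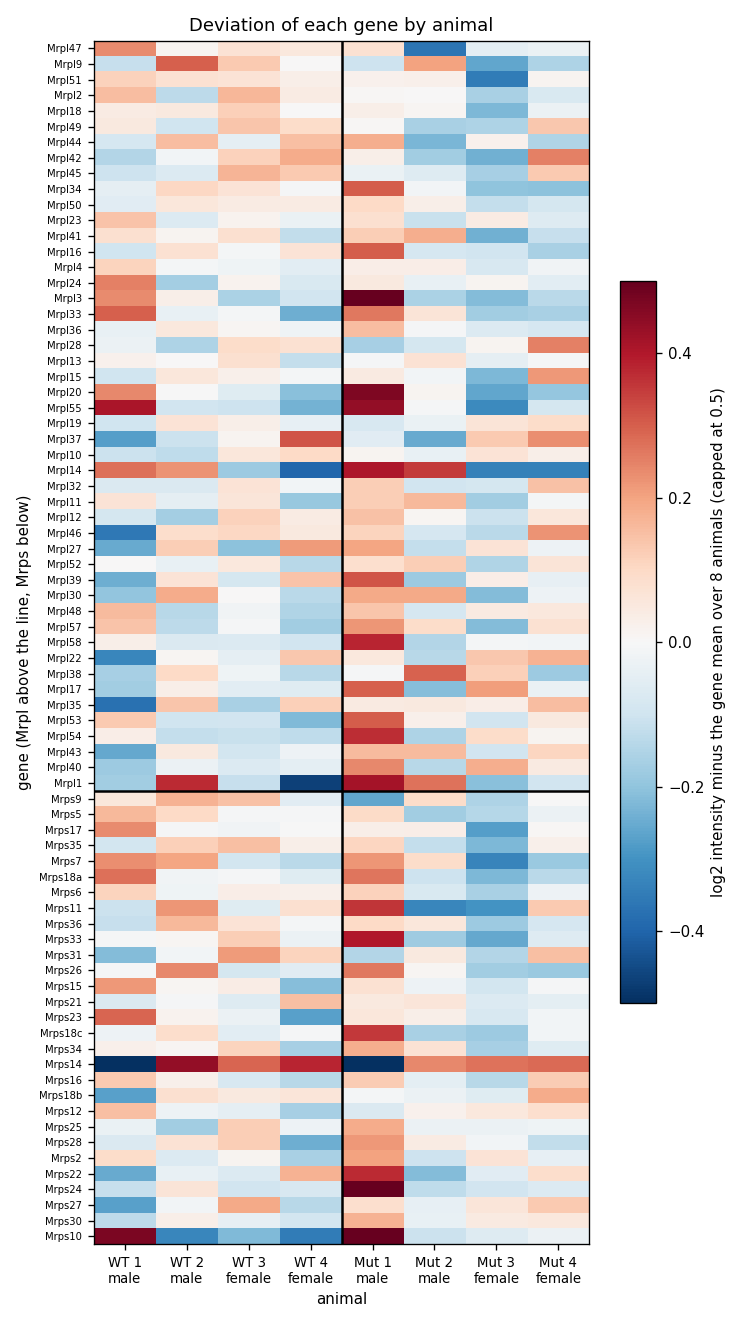
Log2 intensity minus the mean over 8 animals (colour, capped at 0.5 in each direction) for each of 77 members (rows, Mrpl above the line and Mrps below) in each animal (columns). Mutant 1 is above the mean for 65 members and mutant 3 for 21, and Mrps14 is low in both animals of pair 1.

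The median SD within a genotype was 0.15 over member genes against 0.20 over all tested probes, and the highest among members was 0.65, for Mrps14. Across the 8 animals, deviations of 2 members correlated with a median r of 0.18 within Mrpl, 0.266 within Mrps and 0.235 between them. The median r was 0.222 with respiratory chain subunits, 0.154 with cytosolic ribosomal proteins, −0.166 with slow fibre markers and 0.0144 with all tested probes. These values describe 8 animals that share arrays in pairs.

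The 4 member probes within 20 Mb of Pus1 on chromosome 5 belonged to Mrpl1, Mrps17 and Mrps18c. Their ratios were 0.19 (Mrpl1), −0.11 and 0.02 (the probes of Mrps17) and −0.0014 (Mrps18c), and 0 of 4 had an unadjusted p under 0.05. Mrpl1 levels were 8.99, 9.54, 9.06 and 8.70 in wild type mice and 9.59, 9.44, 8.96 and 9.07 in mutants. The mutant was higher in pairs 1 and 4 and lower in pairs 2 and 3, and the genotypes overlapped over most of their range.

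Genes that work with the mitoribosome gave no calls in limma either (0 in each list). Of 38 tested translation and assembly factors, 11 were higher and 27 lower, with a median of −0.06. The number lower was 35 with median centring (median −0.14, against −0.06 for all tested probes) and 22 without pair 3 (median −0.03). The smallest p among them belonged to Guf1, a translation elongation factor of mitochondria (−0.38, limma, unadjusted p 0.0275), followed on the lower side by the elongation factor Gfm1 (−0.17). On the higher side stood the ribosome recycling factor Mrrf (0.22) and Mterf3, a factor of large subunit assembly (0.10). Of the 5 subunits with other symbols, Dap3 had −0.13, Ptcd3 0.01, Aurkaip1 0.04, Gadd45gip1 0.05 and Chchd1 0.12. The list of mitochondrial aminoacyl-tRNA synthetases, which charge the tRNAs, also held Qrsl1, Gatb and Gatc, which are not synthetases. Of its 20 tested genes, 6 were higher and 14 lower (median −0.05), with Cars2 and Aars2 at 0.14 each, Rars2 at −0.17 and Hars2 at −0.14. The number lower was 18 with median centring (median −0.13, against −0.06 for all tested probes) and 11 without pair 3 (median −0.0083).

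Respiratory chain and ATP synthase subunits were lower for 64 of 76 tested genes (median −0.09). The number lower was 74 with median centring (median −0.18, against −0.06 for all tested probes). It was 75 without pair 1 (median −0.16) and 44 without pair 3 (median −0.02). The pair medians were 0.11, −0.11, −0.16 and −0.17. Atp5a1, the ATP synthase alpha subunit, had −0.30 and Atp5g3, a subunit c gene, −0.29, while Ndufab1 had 0.18 and Ndufs4 0.09. Cytosolic ribosomal proteins were higher for 62 of 81 tested genes (median 0.08). The count was 34 with median centring (median −0.01, against −0.06 for all tested probes). Without pair 1 the count was 52 (median 0.02), and without pair 3 it was 66 (median 0.13). Their pair medians were 0.16, 0.08, −0.06 and 0.14. Rpl3 had 0.37, Rps4l 0.29, Rpl7 −0.22 and Rplp0 −0.19. These lists and the members came from the same 4 pairs, so their medians share the same animals, and pair 1 gave the highest median for the members, for the respiratory chain and for the cytosolic ribosomal proteins.

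**Figure D4:**
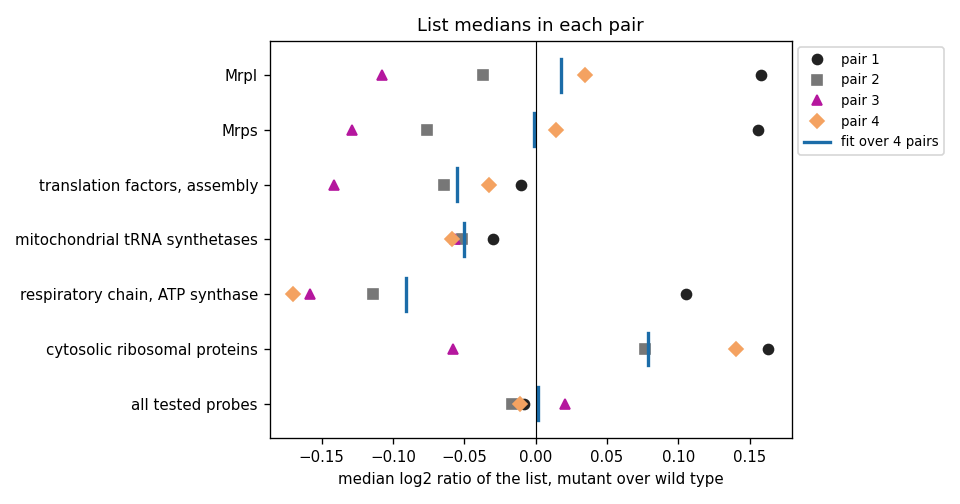
Median log2 ratio, mutant over wild type (x axis), of each gene list (rows) in pairs 1 to 4 (symbols) and in the fit over 4 pairs (vertical bars). Mrpl and Mrps medians lie together in every pair, from 0.16 in pair 1 to −0.11 and −0.13 in pair 3.

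Between the sexes, 1 member differed. Mrpl14 encodes uL14m, which lies on the face of the large subunit that meets the small one. Its levels in males were 14.78 and 14.73 (wild type) and 14.91 and 14.85 (mutant), and in females 14.32 and 14.11 (wild type) and 14.17 and 14.17 (mutant). All 4 males were above all 4 females, with no overlap. Within males both mutants were above both wild type mice, and within females the mutants lay between them. The female over male log2 ratio was −0.63 (SE 0.11, n = 4 animals a sex), with an adjusted p of 0.0376 in limma's separate-channel fit. That call was 1 of 99 member probes, against 1.38% of all tested probes called in either direction (319) and 0.866% called lower in females. It did not pass with any 1 pair left out: the ratio stayed between −0.68 and −0.57, and the limma adjusted p was 0.0711, 0.0835, 0.123 and 0.659 without pairs 1 to 4. Each sex was measured on 2 arrays that held no animal of the other, so sex and array cannot be told apart beyond the spread of these arrays.

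At an unadjusted p under 0.05 for sex stood 10 of 99 member probes (10.1%), against 22.9% of all tested probes. Of these, 8 were lower and 2 higher in females, against 11.7% and 11.2% of all tested probes. By sign 53 of 77 members were lower in females (30 of 48 Mrpl, 23 of 29 Mrps), with a median of −0.06 (Mrpl −0.05, Mrps −0.09). Of all tested probes 12779 were lower and 10319 higher, with a median of −0.03. Some marker lists had median female over male ratios away from 0, at 0.55 for erythroid, 0.43 for slow fibre and 0.35 for fibroblast markers. However, 0 markers of these lists were called for sex, and the summed levels of the sexes overlapped. They were 15.47 to 18.73 in females and 16.09 to 17.16 in males for erythroid markers. For slow fibre markers they were 15.90 to 17.49 and 15.61 to 17.37, and for fibroblast markers 14.90 to 15.45 and 14.90 to 15.79. The part of these lists in the members' values was not tested.

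On the lower side the 3 smallest p belonged to Mrpl14, Mrpl1 and Mrpl20 among the Mrpl genes and to Mrps7, Mrps26 and Mrps23 among the Mrps genes, and only Mrpl14 passed. Levels of Mrps7 were 13.63, 13.61, 13.59 and 13.48 in males and 13.30, 13.06, 13.26 and 13.21 in females, without overlap (ratio −0.37, limma adjusted p 0.0996); its second probe gave −0.16. Mrpl20, a relative of bacterial L20, which acts in early large subunit assembly in bacteria, had −0.36 (−0.19 without pair 1) and also did not overlap. On the higher side Mrpl37 (mL37) had 0.35 (limma adjusted p 0.119), with males at 9.75 to 9.97 and females at 10.04 to 10.34. Mrpl28 had 0.22 and Mrpl22 0.20, the second Mrpl22 probe −0.13. Among Mrps genes, Mrps31 had 0.16 and Mrps18b 0.12 (0.06 and 0.03 without pair 1), and Mrps14 had 0.61. The sexes did not overlap for 9 of 99 member probes (9.09%), against 17.3% of all tested probes. These were probes of Mrpl4, Mrpl10, Mrpl14, Mrpl20, Mrpl28, Mrpl37, Mrps7, Mrps23 and Mrps26.

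Mrps14 (uS14m of the small subunit head) had a sex ratio that rested on 1 array. Its levels were 10.72 in wild type 1 and 11.12 in mutant 1, against 12.12 to 12.32 in the other 6 animals. Both animals of pair 1 were thus at least 0.99 below the rest, in both dyes. Its second, dimmer probe gave 7.36 and 7.73 in the same animals against 7.31 to 7.54 in the others, so that wild type 1 lay within their range and mutant 1 above it. Without pair 1 the ratio of the brighter probe was −0.03.

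**Figure D5:**
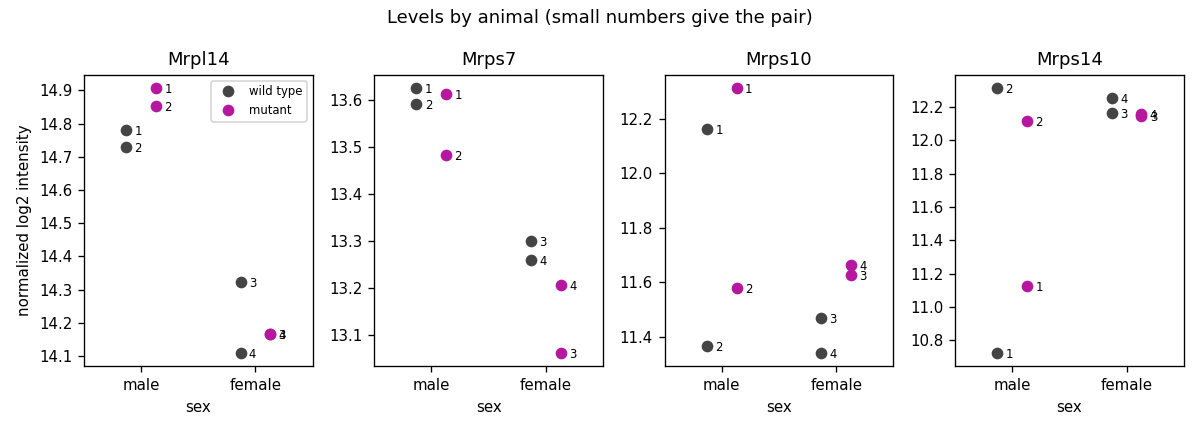
Normalized log2 intensity (y axes, each with its own range) of Mrpl14, Mrps7, Mrps10 and Mrps14 by sex (x axis), with wild type animals in grey and mutants in magenta, numbered by pair. Females lie below males for Mrpl14 and Mrps7, and pair 1 lies apart for Mrps10 (above) and Mrps14 (below).

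Pair 1 lay apart for other members as well, at a share near that of all tested probes. Both of its animals were outside the range of the other 6 for 25 of 99 member probes (25.3%, 21 above and 4 below), against 24.7% of all tested probes. The same held for 3, 3 and 5 member probes in pairs 2 to 4, against 8.99%, 4.91% and 14.3%. After Mrps14 the widest gaps belonged to the second Mrpl41 probe (−0.57), Mrps10 (0.50) and Mrpl55 (0.42).

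No member passed the test for a genotype effect that differs between the sexes. In limma's interaction fit 0 of 99 passed the adjusted threshold (background 0% of all tested probes), and 0 of 99 had an unadjusted p under 0.05, against 2.19%. The female effect minus the male effect had a median of −0.10 over the members and ran from −0.35 to 0.29, while its median over all tested probes was 0.02. The smallest p on the lower side belonged to Mrpl34 (−0.35), Mrpl12, the stalk protein that recruits translation factors (−0.31), and Mrpl16 (−0.28). On the higher side it belonged to Mrps12, a protein of the decoding centre (0.26), Mrps23 (0.21) and Mrpl47 (0.17). Mrpl34 was higher in the mutant in pair 1 (0.35) and lower in pairs 2 to 4 (−0.12, −0.27 and −0.20), so the difference did not follow the sexes pair by pair.

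For 22 member genes 2 probes were tested. The ratios of the 2 probes had the same sign for 14 genes and opposite signs for 8 (Mrpl4, Mrpl10, Mrpl39, Mrpl41, Mrpl49, Mrps17, Mrps23 and Mrps25). The gap between them had a median of 0.05 and reached 0.17. Across 8 animals the deviations of the 2 probes correlated with a median r of 0.359, from −0.696 (Mrpl41) to 0.818 (Mrps33).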

How the data were processed

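Spots are given in the deposited scanner output as linear intensity values from Agilent Feature Extraction 10.7.3.1, per the submitters' processing notes, with other values beside them that per the file headers are flags of 0 or 1 for spots well above background, saturated or outlying. The authors' deposited table of the series holds log2 values, judged from the values to be centred on each probe's median; the sources used here do not state its normalization, and it served as an alternative. Probes were named through RefSeq accessions of assembly GRCm38.p6 (27656 of 55681 probes with a single symbol, 28025 with none), while the file headers name mm9, so no probe coordinates are given.

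Median spot signals were background-corrected with normexp (offset 50), normalized within arrays by loess with control and outlier spots at weight 0, and averaged per probe. A probe was tested when it had a value on all 4 arrays and 4 or more of its 8 channels were well above background (23098 probes). Mutant over wild type ratios were fitted with limma (version 3.58.1; R 4.3.3 and data.table version 1.17.8), using lmFit, eBayes and a dye term, and the interaction with sex in the same kind of fit. Sex was fitted on separate channels after Aquantile with lmscFit (intraspot correlation 0.187; genotype and dye as terms). P-values were adjusted by Benjamini-Hochberg over all tested probes, with a threshold of 0.05. The steps were tested on simulated data.

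Levels are log2 intensities after loess and Aquantile, and pair ratios carry no dye correction. The pairing is physical, since same-numbered mice shared an array, and the ratio within it serves as the block; their deviations correlated across probes at 0.659, 0.278, 0.0594 and 0.636. Labels name individual mice. The number of arrays limits the precision. Named genes were, in each of Mrpl and Mrps, the 5 with the smallest genotype p and the 3 with the smallest sex p on each side; the 3 with the smallest interaction p on each side; every called member; Mrps18a, Mrps18b, Mrps18c and Mrps30; members within 20 Mb of Pus1; members whose probes differed in sign; and 2 a side in other lists. Promoter letters came from RefSeq (GRCm38.p6), which held promoters of 69 member genes. Members, lists and tests were chosen with earlier results of these data known. Probe sequences were not used here, so hybridisation of pseudogene transcripts was not checked.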

Additional observations from a re-analysis of the deposited data

Results flagged for a closer look

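In 92 groups of 4 animals, 13 held 1 animal far from the other 3, and values are log2 levels. The rule marks about 1 in 20 groups of independent values. The groups here share animals and arrays, and the same share over all tested probes was not computed. The count is therefore not read as an excess for these genes. Wild type 1 was the far animal for Mrpl54 (13.31, others 13.15 to 13.17), Mrps17 (11.53, others 11.28 to 11.30), Mrps18a (12.86, others 12.53 to 12.58), Mrps10 (12.16, others 11.34 to 11.47) and, as the lowest, Mrps18b (12.60, others 12.92 to 12.95). It was also far above the other males for Mrps23 (13.84, others 13.56 to 13.61). Mutant 1 was far above the other mutants for Mrps10 (12.31, others 11.58 to 11.66), Mrps24 (12.94, others 12.30 to 12.36) and Mrps25 (12.15, others 11.93 to 11.94). Pair 1 thus supplied 9 of the 13. Over all tested probes, both animals of pair 1 lay outside the range of the other 6 for 24.7%. Mutant 3 was far below the others for Mrpl51 (14.50, others 14.86 to 14.87) and Mrps17 (11.02, others 11.30 to 11.33), and mutant 4 was above them for Mrpl35 (8.74, others 8.62 to 8.64). Among females, wild type 4 was above the others for Mrps14 (12.25, others 12.15 to 12.16).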

How the results depend on the processing

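With 15 other settings of the genotype fit, 0 member probes were called in each, with no replicate block among them (0), while the number of all tested probes called was 0 with the main settings, 23 with median centring and 245 without pair 3. Without the array as block the Mrpl minus Mrps median was again 0.02. In this balanced design each fitted genotype ratio is the same with or without the block, so the gap could not move. The pairing changed no call of a member. That median gap was 0.040 with the scanner's processed signals and 0.036 in the deposited table, and ran from −0.0052 to 0.061 with 1 pair left out. With 1 pair left out, the ratio of Mrps27 ran from −0.0033 to 0.24, that of Mrps24 from −0.044 to 0.27, that of Mrps22 from −0.059 to 0.25 and the sex ratio of Mrps14 from −0.034 to 1.26; each lowest value was that without pair 1. The Mrpl14 sex call held in the 5 settings that kept all pairs (limma adjusted p 0.0205 to 0.0408) and in 0 of 4 with a pair left out, where 0 members were called; fewer arrays were fitted there, with the intraspot correlation of the full fit. Of all tested probes, 319 were called for sex, against 728 with median centring, 554 with no filter on dim probes, 850 without the block, and 54, 32 and 16 without pairs 2, 3 and 4. In the interaction fit 0 members were called in 5 of 5 settings. Only 2 arrays per sex and 4 pairs limit every value, and Mrpl21 was too dim for any.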
